A study of Mus musculus with 34 samples.

Results

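The genes described here are 10 transporters that carry sugars, peptides and amino acids across the enterocyte, the absorptive cell of the small intestine. They were chosen by name (Slc5a1, Slc2a5, Slc2a2, Slc15a1, Slc6a19, Slc6a20a, Slc1a1, Slc7a9, Slc3a1 and Slc7a7) and are 10 of the 21938 protein-coding genes measured. H3K4me3, a histone mark found at promoters in use, was measured by CUT&RUN, in which an antibody directs protein A fused to micrococcal nuclease to the mark and the released DNA fragments are sequenced. The value of a gene was the mean H3K4me3 signal, the deposited coverage per base scaled to 10000000 tags per library, within 1000 bp of its 5′ end in GENCODE M21 (mm10). Villus cells were scraped from the small intestine of C57BL/6J mice, 2 libraries from wild-type mice and 2 from ApcMin/+ mice, which carry a germline mutation in 1 allele of Apc, a negative regulator of Wnt signalling, in every cell. The labels give an age of 5 weeks for all 4 libraries, whereas the study's methods give a different one, and the tissue was normal-appearing rather than tumor. The comparison of genotypes addresses whether promoters carry more of this mark in tissue at risk of tumors. The study's methods describe a pair of mice for each genotype, but the labels do not tie each library to a mouse, so p-values measure only the spread between these libraries.

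Sugars enter the enterocyte at its brush border with sodium or by facilitated diffusion and leave it on the blood side through facilitative carriers. Amino acids and short peptides are taken up by carriers coupled to sodium, protons or the exchange of other amino acids, and several of these carriers reach the membrane only with a partner subunit. These genes are switched on as cells leave the crypt and move up the villus, under transcription factors such as HNF1, HNF4, CDX2 and GATA4. H3K4me3 usually lies on the nucleosomes that flank the start of a transcribed gene, with most of it on the downstream side.

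The letters around the starts that carry the mark are shown for 4 members, because these hold the matches to motifs of the enterocyte factors. Each line gives 250 bases before and 50 bases after a RefSeq start (GRCm38). Lines run 5′ to 3′ along the gene, and capitals mark exact motif matches on either strand.
Slc3a1, chr17:85028097-85028396, + strand: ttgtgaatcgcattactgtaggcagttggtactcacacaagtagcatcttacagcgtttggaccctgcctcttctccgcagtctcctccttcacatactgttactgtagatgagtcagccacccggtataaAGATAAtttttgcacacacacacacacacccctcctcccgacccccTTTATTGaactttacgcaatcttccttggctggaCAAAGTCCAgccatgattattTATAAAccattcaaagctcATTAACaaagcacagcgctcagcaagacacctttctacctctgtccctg
Slc6a20a, chr9:123678783-123679082, − strand: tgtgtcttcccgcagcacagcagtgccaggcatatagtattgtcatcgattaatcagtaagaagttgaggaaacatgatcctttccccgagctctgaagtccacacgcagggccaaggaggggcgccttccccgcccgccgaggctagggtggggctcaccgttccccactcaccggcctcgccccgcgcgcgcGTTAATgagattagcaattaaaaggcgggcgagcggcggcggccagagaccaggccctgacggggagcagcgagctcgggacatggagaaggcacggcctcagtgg
Slc7a7, chr14:54409423-54409722, − strand: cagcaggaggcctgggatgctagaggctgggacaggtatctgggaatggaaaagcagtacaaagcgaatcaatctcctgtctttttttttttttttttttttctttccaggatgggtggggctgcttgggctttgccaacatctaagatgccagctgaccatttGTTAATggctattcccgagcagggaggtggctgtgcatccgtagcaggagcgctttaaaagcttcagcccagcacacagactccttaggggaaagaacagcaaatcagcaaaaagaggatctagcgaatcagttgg
Slc7a9, chr7:35448842-35449141, + strand: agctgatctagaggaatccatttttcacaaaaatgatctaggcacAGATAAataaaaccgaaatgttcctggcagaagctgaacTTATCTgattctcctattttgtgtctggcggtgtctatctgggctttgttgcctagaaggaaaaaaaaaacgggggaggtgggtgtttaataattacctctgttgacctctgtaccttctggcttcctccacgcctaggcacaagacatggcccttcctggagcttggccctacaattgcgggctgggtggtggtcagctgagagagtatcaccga

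Searched on both strands were GTTAATNAT for HNF1, and the core of that motif, GTTAAT. For HNF4 the search used CAAAGTCCA, which contains the shorter form AAAGTCCA that was also searched. For the CDX factors it used TTTATGG, and as another form of that motif TTTATTG. For the GATA factors it used AGATAA, and as a core promoter element TATAAA in the 50 bases before the start on the gene's strand. All 10 members matched the RefSeq promoter table, in 15 rows. Slc3a1 held the most matches. Its CAAAGTCCA began 39 bases before the start, its TTTATTG 73 bases and its AGATAA 119 bases before it, TATAAA began 18 bases before it and the HNF1 core on the other strand 2 bases into the transcript. Of the 32851 promoters in the table, 0.475% held CAAAGTCCA, 4.60% TTTATTG, 11.2% AGATAA, 2.63% TATAAA before the start and 7.10% the HNF1 core. This core stood 56 bases before the Slc6a20a start and 86 bases before the Slc7a7 start that lies 8308 bp into the gene. Slc7a9 held AGATAA 205 bases before its start, and on the other strand 166 bases before it. At Slc7a7, AGATAA lay in the overlapping windows of 2 unmarked starts, at the same genomic position in each. The full GTTAATNAT, which 0.801% of promoters held, and TTTATGG, which 2.75% held, were found in none of the 15 windows. Slc5a1, Slc2a2, Slc2a5, Slc15a1, Slc1a1 and the table's window of Slc6a19 held no match of any kind. That Slc6a19 window lies at a start 12229 bp into the gene, with a mean signal of 1.09. The protein-coding start 4085 bp into Slc6a19, which carries the mark, was not searched. These matches describe letters and do not show that a factor was bound. The members also differed in CpG content, from an observed over expected ratio of 0.121 at Slc2a2 to 0.859 at Slc6a20a and 0.863 at Slc1a1, against a median of 0.384 over the table.

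The 4 libraries differed in depth and in how much of their signal lay at promoters. They held between 1430000 (wild-type replicate 1) and 5470000 tags (ApcMin/+ replicate 2), and at the 10 members together 158 and 307 fragments in wild-type and 1022 and 415 in ApcMin/+ mice. ApcMin/+ replicate 1 stood apart from the other 3 libraries, since 43.3% of its signal lay in enriched regions against 11.9% to 22.6%. It was the highest of the 4 libraries at 98.6% of the 9930 promoters whose mean signal reached 2 (the tested promoters). Values are therefore given per library, and the genotype differences of the members and lists are also given without that library. Enterocyte markers carried the mark in villus cells, with 7 of 10 tested and a mean signal of 5.88 and 2.69 in wild-type and 14.2 and 3.66 in ApcMin/+ libraries. Of the markers of mesenchyme, of immune cells and of genes not used in intestine, 0 of 10 each reached a mean signal of 2, and none of these markers was at 0 in all libraries. Of the secretory markers 1 of 10 did, and of the crypt and Wnt markers 7 of 10.

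At 7 of the 10 members H3K4me3 lay over the annotated 5′ end of the gene, and at Slc6a19, Slc7a7 and Slc2a5 it lay inside the gene. The tracks plotted along each gene place the mark in the same part of the gene in the 4 libraries, in spite of their different heights. The highest point was not always shared. At Slc2a5 it lay near 2500 bp into the gene in wild-type replicate 1 (35.0) and near 1700 bp in ApcMin/+ replicate 1 (22.5). At Slc1a1 it lay near 300 bp into the gene in wild-type replicate 1 (17.9) and near 100 bp before the 5′ end in ApcMin/+ replicate 2 (15.8). The 7 members with the mark at the 5′ end had mean signals of 5.54 (Slc6a20a) to 12.5 (Slc15a1). The other 3 had mean signals of 0.288 (Slc6a19), 0.449 (Slc7a7) and 1.05 (Slc2a5), beside a background outside enriched regions and genes' 5′ ends of 0.279 and 0.322 in wild-type and 0.198 and 0.299 in ApcMin/+ libraries. Over the 10 members the median of the mean signal was 6.43, beside 6.27 over the tested promoters and 1.31 over all protein-coding genes.

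**Figure D1:**
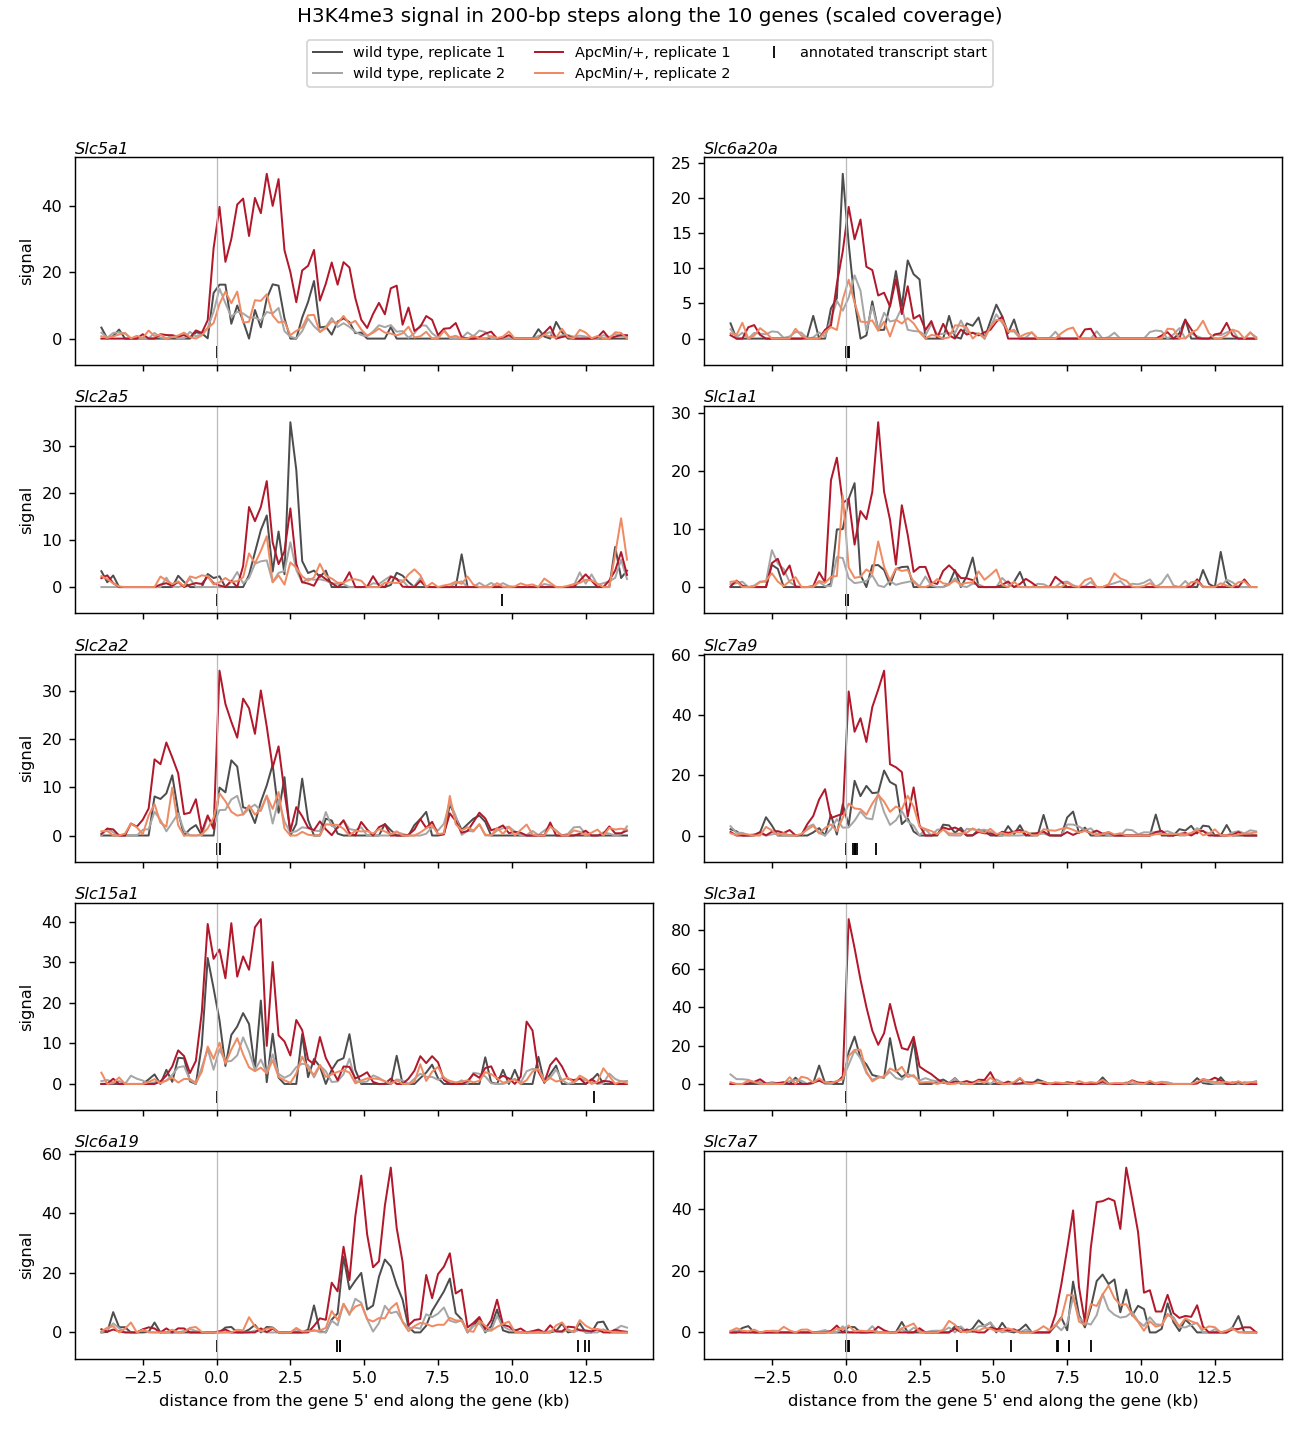
H3K4me3 signal (scaled coverage, vertical axis, own scale in each panel) in 200-bp steps from 4 kb before to 14 kb after the 5′ end of each of the 10 genes (horizontal axis, kb along the gene), with 1 line per library and ticks at annotated transcript starts. The signal lies over the 5′ end in 7 genes, and inside the gene in Slc2a5, Slc6a19 and Slc7a7, in all 4 libraries.

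Slc5a1 (chr5:33104219-33162870, + strand), the sodium-coupled glucose and galactose carrier of the brush border, had signals of 6.97 and 6.36 in wild-type and 21.3 and 6.37 in ApcMin/+ libraries. These rested on 20, 61, 158 and 70 fragments. ApcMin/+ replicate 2 was thus nearly equal to wild-type replicate 2, and ApcMin/+ replicate 1 stood above the other 3 libraries. In each library Slc5a1 ranked high, above 90.3% and 98.8% of protein-coding promoters in wild-type and 91.6% and 93.4% in ApcMin/+ mice. The mark ran far into the gene, and from 3000 to 6000 bp downstream of the start the signal was still 3.99, 3.38, 14.8 and 3.84, against 8.11, 6.42, 33.6 and 7.99 over the first 3000 bp.

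Slc2a2 (chr3:28697903-28731359, + strand), the facilitative glucose carrier of the basolateral membrane, had signals of 5.82 and 3.67 in wild-type and 15.2 and 3.47 in ApcMin/+ libraries. Here ApcMin/+ replicate 2 was the lowest of the 4. A separate patch of the mark lay upstream of the gene, from 2400 to 1001 bp before its 5′ end, with signals of 5.98, 2.66, 12.7 and 3.88 in the same order. Between this patch and the start, from 1000 to 201 bp before it, the signal was 0.872, 0.954, 4.29 and 0.423, lower than on either side in every library. The patch and its limits were singled out after the tracks were seen.

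Slc2a5 (chr4:150119283-150144169, + strand) encodes the fructose carrier of the brush border. Its 5′ end held 0.697 and 0.700 in wild-type and 1.13 and 1.69 in ApcMin/+ libraries, that is 2, 7, 8 and 18 fragments, so each value has a wide counting interval (0.0846 to 2.52 in wild-type replicate 1 and 0.975 to 2.60 in ApcMin/+ replicate 2, exact Poisson, 95%, counting error only). Both ApcMin/+ libraries lay above both wild-type libraries, as at 26.0% of all protein-coding promoters, and the gene was below the filter and was not tested. From 1000 to 3000 bp into the gene the signal was 12.0 and 3.95 in wild-type and 11.5 and 4.63 in ApcMin/+ libraries, from 34, 38, 85 and 51 fragments. At this stretch wild-type replicate 1 was the highest library, and the groups overlapped. No transcript start of GENCODE M21 lies in the stretch, and the nearest annotated start downstream is 9663 bp from the 5′ end. A long noncoding RNA gene on the other strand, Gm13093, starts 20 bp from the Slc2a5 5′ end, and the mark does not tell which strand it serves.

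Slc15a1 (chr14:121459621-121505252, − strand), the proton-coupled carrier of short peptides, had signals of 12.9 and 5.56 in wild-type and 25.4 and 6.22 in ApcMin/+ libraries, from 37, 53, 188 and 68 fragments. Wild-type replicate 1 was above ApcMin/+ replicate 2, so the groups overlapped. It had the highest mean log2 signal of the 10 members at the 5′ end (3.52 as log2(signal + 1)), but it was above the next member, Slc3a1, in only 2 of 4 libraries. Unlike Slc5a1 and Slc2a2 it carried about as much of the mark upstream as downstream in wild-type replicate 1, where 49.6% of the signal within 1000 bp lay downstream. The other 3 libraries had 69.1%, 61.9% and 67.9% downstream.

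Slc6a19 (chr13:73679745-73704865, − strand), the main sodium-coupled carrier of neutral amino acids in the brush border, had almost no mark at its 5′ end, with 0.349 and 0.160 in wild-type and 0.135 and 0.509 in ApcMin/+ libraries. These values stood for 1, 2, 1 and 6 fragments. The GENCODE transcript that begins there is not protein-coding. At the protein-coding start, 4085 bp further into the gene, the signal was 10.1 and 4.74 in wild-type and 19.2 and 5.12 in ApcMin/+ libraries. Its signal lay in the range of the 7 members marked at the 5′ end. The noncoding gene Slc6a19os begins inside the same stretch.

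Slc6a20a (chr9:123634770-123678885, − strand), a sodium-coupled carrier of proline and other imino acids, had signals of 5.81 and 4.05 in wild-type and 9.29 and 3.01 in ApcMin/+ libraries, from 17, 39, 69 and 33 fragments. It had the lowest value in ApcMin/+ replicate 1 of the 7 members marked at the 5′ end. Its rank among protein-coding promoters was 84.9% and 87.9% in wild-type and 68.2% and 65.9% in ApcMin/+ libraries, where the percentage is the share of promoters with a signal no higher. The window is shared with Ccr9, a chemokine receptor gene of lymphocytes that starts 446 bp away on the other strand, and with the noncoding gene Gm17200. At the Ccr9 5′ end the signal was 6.16, 4.47, 10.5 and 3.26, so the signal of the 2 genes cannot be told apart. The 10 immune markers summed to 7.96 and 5.28 in wild-type and 10.6 and 8.26 in ApcMin/+ libraries, and their part in the Slc6a20a signal was not tested.

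Slc1a1 (chr19:28835049-28913960, + strand), which carries glutamate and aspartate, had signals of 5.96 and 1.75 in wild-type and 12.2 and 3.33 in ApcMin/+ libraries. By ratio, the wild-type libraries differed more at this gene than at any other of the 7, with 17 fragments in each despite their different depth. Its mark was not one-sided, as 65.5% and 35.0% of the signal in wild-type and 52.1% and 36.2% in ApcMin/+ libraries lay downstream of the 5′ end.

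Slc7a9 (chr7:35448796-35466036, + strand) and Slc3a1 (chr17:85028376-85064236, + strand) encode the light and the heavy subunit of the exchanger that takes up cystine and cationic amino acids. Slc7a9 had signals of 8.52 and 3.78 in wild-type and 24.2 and 6.01 in ApcMin/+ libraries, and Slc3a1 had 7.98, 5.49, 28.7 and 6.64 in the same order. At both genes the order of the libraries was the same, with ApcMin/+ replicate 1 highest and wild-type replicate 2 lowest. Slc5a1, Slc15a1 and Slc1a1 had this order too. The Slc3a1 signal was the most one-sided. In the 1000 bp before its 5′ end it was 2.01, 1.26, 1.64 and 1.66, and over the first 2400 bp of the gene 11.6, 6.38, 38.2 and 8.06. ApcMin/+ replicate 1 was therefore within the range of the other libraries upstream and above them downstream.

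Slc7a7 (chr14:54369442-54417780, − strand) encodes the light subunit of the basolateral exchanger through which cationic amino acids leave the cell. Its 5′ end held 0.349 and 0.522 in wild-type and 0.285 and 0.639 in ApcMin/+ libraries, and the first 7000 bp of the gene 0.797, 0.612, 0.347 and 0.816. At the protein-coding start 8320 bp into the gene, chr14:54409460, the signal was 10.5 and 5.88 in wild-type and 30.7 and 9.43 in ApcMin/+ libraries. The RefSeq start printed above, with the HNF1 core, lies close to it. The marked start ranked above 97.2%, 97.0%, 97.5% and 99.3% of protein-coding genes when each gene was read at its own strongest start. Of the 12 annotated starts of Slc7a7, 5 lay in the marked stretch.

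When each gene was read at its annotated start with the highest mean signal, 9 of the 10 members reached the mean signal of 2, and Slc2a5 alone did not. The order by mean log2(signal + 1) was then Slc7a9 (3.86), Slc7a7 (3.67), Slc15a1 (3.52), Slc3a1 (3.42), Slc5a1 (3.31), Slc6a19 (3.29), Slc2a2 (2.89), Slc6a20a (2.64), Slc1a1 (2.59) and Slc2a5 (1.01). Neighbours in this order kept it in all 4 libraries for Slc7a9 above Slc7a7, Slc6a19 above Slc2a2 and Slc1a1 above Slc2a5. The mean gap of Slc7a9 over Slc7a7 was 0.19 ± 0.14 (SD, n = 4), of Slc6a19 over Slc2a2 0.40 ± 0.18 and of Slc1a1 over Slc2a5 1.58 ± 1.01. The other neighbours did not differ beyond their spread, for example Slc5a1 and Slc6a19 with 0.019 ± 0.38 and Slc6a20a and Slc1a1 with 0.045 ± 0.58. The start chosen for Slc7a9, 1040 bp into the gene, belongs to a transcript not labelled protein-coding. The strongest protein-coding start of Slc7a9, 374 bp into the gene, had a mean signal of 14.2, beside 14.1 at the Slc7a7 start. As each gene was read at the start chosen for its signal, these levels are a description. The plot of signal by library sets the 2 readings side by side.

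**Figure D2:**
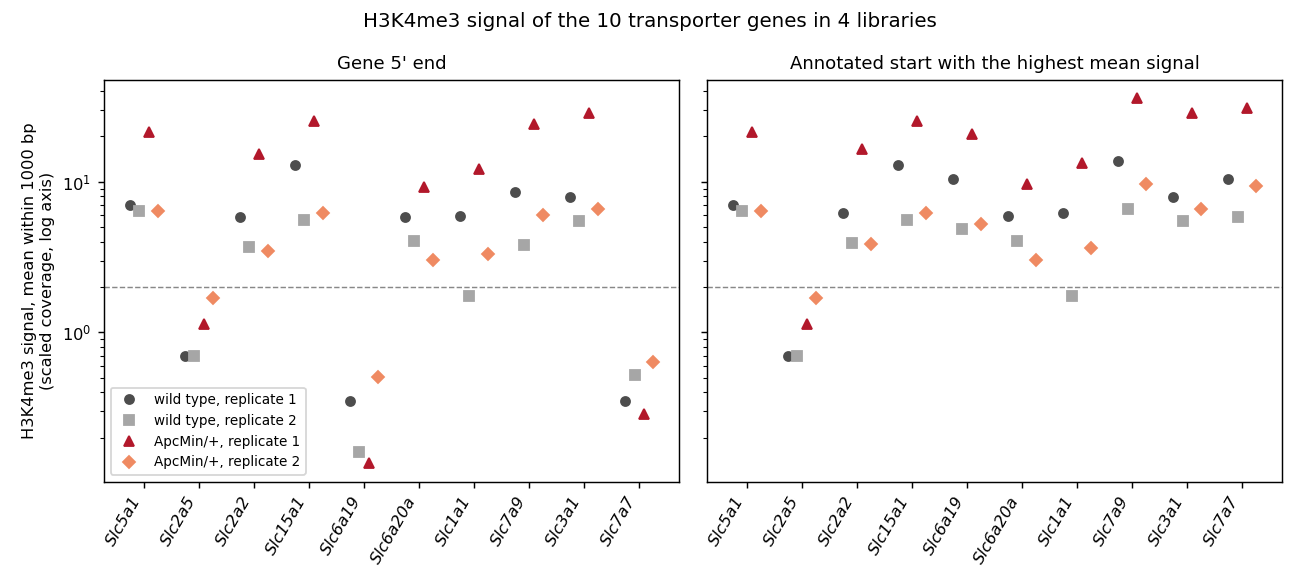
Mean H3K4me3 signal within 1000 bp (vertical log axis) of the gene 5′ end (left) and of the annotated start with the highest mean signal (right) for the 10 genes, with 1 point per library. The dashed line marks the mean signal of 2 used as a filter. Slc6a19 and Slc7a7 move from at most 0.639 to at least 4.85 in every library, whereas Slc2a5 stays at 1.69 or lower.

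The members also differed in the length of the marked stretch. Stretches were called on the mean of the 4 tracks, where 100-bp bins reached 5 times the mean of the genome, and gaps of up to 500 bp were bridged. Slc5a1 had the longest at 8400 bp, longer than at 99.4% of the 9930 tested promoters, whose median was 2000 bp (quartiles 1500 and 2800 bp). Slc2a2 and Slc15a1 had 6800 bp each, longer than at 98.7% of tested promoters, and Slc3a1 had 5400 bp, longer than at 96.6%. The Slc2a2 stretch ran from -2402 to 4397 bp relative to the 5′ end, and so took in the patch upstream of the gene. Slc6a19 had 6700 bp and Slc7a7 4900 bp. For the tested promoters only stretches within 1000 bp of the 5′ end counted. The lengths at Slc6a19 and Slc7a7, found further inside the gene, therefore have no like reference. Slc7a9 had 3800 bp, Slc6a20a 3000 bp, and Slc1a1 and Slc2a5 2900 bp each. The stretch of a member was the longest that overlapped the span from 1000 bp before its 5′ end to the end of the gene. It need not overlap the start. The lengths and their order depended on the threshold. At 10 times the mean, Slc5a1 kept 7300 bp and Slc7a7 4900 bp, whereas Slc2a2 had 3000 bp, Slc6a19 3100 bp, Slc3a1 2400 bp, Slc2a5 1800 bp and Slc6a20a 1400 bp. At 3 times, Slc6a20a had 6300 bp and Slc7a9 6100 bp. Without ApcMin/+ replicate 1 the stretches of Slc5a1, Slc2a2, Slc15a1, Slc6a19 and Slc3a1 were 6600, 4700, 4300, 3200 and 2500 bp. Their lengths thus rested partly on that library, and Slc3a1 had 3200 bp without wild-type replicate 1. Slc7a7 was 4900 bp without any single library.

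Within the stretches the mean signal of wild-type replicate 1 lay between 4.70 (Slc5a1) and 9.14 (Slc2a5), and of wild-type replicate 2 between 1.37 (Slc1a1) and 4.74 (Slc7a9). ApcMin/+ replicate 1 ranged from 8.54 (Slc2a5) to 23.5 (Slc7a9) and ApcMin/+ replicate 2 from 2.88 (Slc6a20a) to 7.42 (Slc7a9). The ratio of ApcMin/+ replicate 1 to wild-type replicate 1 was therefore not the same at all members. It was 4.13 at Slc5a1, 3.21 at Slc7a7 and 3.10 at Slc3a1, but 1.24 at Slc6a20a and 0.934 at Slc2a5. The ratio of the replicates numbered 2 ran from 0.768 at Slc6a20a to 2.70 at Slc1a1, where only 19 and 59 fragments were counted.

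The side on which the mark lay separated the 7 members marked at the 5′ end. The share of the signal within 1000 bp that lay downstream was 87.5% on average over the libraries at Slc2a2 and 90.1% at Slc3a1, and in the mean track these shares exceeded those of 85.7% and 94.9% of tested promoters. Slc5a1 and Slc7a9 followed with 79.7% and 76.1%, and the downstream side was higher in 4 of 4 libraries at these 4 genes. Slc6a20a, Slc15a1 and Slc1a1 averaged 63.4%, 62.1% and 47.2%. Their shares in the mean track, 63.4%, 61.8% and 54.9%, were below the median of tested promoters, 69.6%. Slc1a1 and Slc6a20a are the members with the highest CpG ratio in the promoter table, and Slc2a2 the one with the lowest. Slc3a1, the most one-sided, did not follow this order, as its ratio of 0.491 was above the 0.411 of Slc15a1. With 7 genes this is given as a description only.

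**Figure D3:**
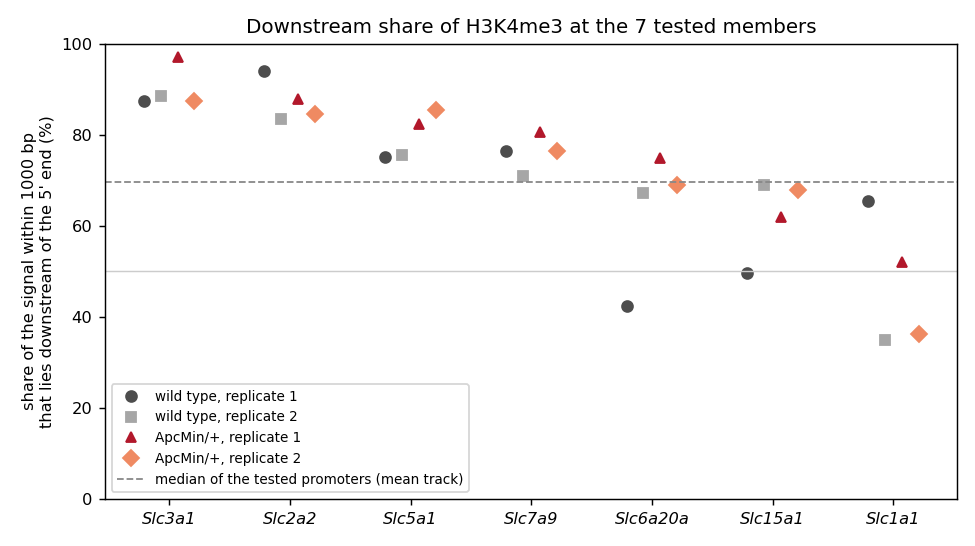
Share of the H3K4me3 signal within 1000 bp of the 5′ end that lies downstream of it (vertical axis, percent) at the 7 tested members, with 1 point per library. The dashed line is the median of the tested promoters in the mean track, 69.6%. Slc3a1 lies between 87.4% and 97.1%, and Slc1a1 between 35.0% and 65.5%.

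The comparison of ApcMin/+ with wild-type mice gave no call among the transporters. In limma on log2(signal + 1) with Benjamini-Hochberg adjustment, 0 of the 7 tested members passed an adjusted p of 0.05 in either direction, and 0 had an unadjusted p under 0.05. Over all 9930 tested promoters 0% passed in either direction, and 132 had an unadjusted p under 0.05. The differences were positive for all 7, from 0.13 (SE 1.00) at Slc6a20a to 0.98 at Slc7a9 (SE 1.22) and Slc3a1 (SE 1.25), with adjusted p between 0.683 and 0.902, while 99.2% of tested promoters had a positive difference with a median of 0.85. The 3 members below the filter had differences of 0.49 (Slc2a5), 0.065 (Slc6a19) and 0.019 (Slc7a7), with no test. Over the 10 members the median difference was 0.56.

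ApcMin/+ replicate 1 was the highest library at 7 of 7 tested members, and ApcMin/+ replicate 2 lay below wild-type replicate 1 at 7 of 7, where 58.2% of tested promoters did. So the groups overlapped at each of the 7, whereas both ApcMin/+ libraries lay above both wild-type libraries at 38.5% of tested promoters and below them at 0.161%. Against wild-type replicate 2, ApcMin/+ replicate 2 was higher at 5 of 7, though nearly equal at Slc5a1 (6.37 against 6.36), and lower at Slc2a2 and Slc6a20a. The median ratio of ApcMin/+ to wild-type replicate 2 was 1.12 over the tested members and 1.36 over all tested promoters. Without ApcMin/+ replicate 1 the differences were -0.056 at Slc5a1, -0.34 at Slc2a2, -0.40 at Slc15a1, -0.55 at Slc6a20a, -0.012 at Slc1a1, 0.055 at Slc7a9 and 0.00087 at Slc3a1, so that 5 of the 7 changed sign. Of the 8978 promoters tested in that setting, 65.3% had a positive difference, and the median was 0.11. The 3 members below the filter were then at 0.66 (Slc2a5), 0.27 (Slc6a19) and 0.19 (Slc7a7), and the median of the 10 was -0.0057. Without ApcMin/+ replicate 2, in contrast, the differences ran from 0.81 at Slc6a20a to 1.96 at Slc3a1. They were 1.47 at Slc15a1, 1.53 at Slc2a2, 1.54 at Slc5a1, 1.60 at Slc1a1 and 1.90 at Slc7a9. The median over the promoters tested in that setting was 1.58. The lone ApcMin/+ library was there assumed to vary like the wild-type pair, so no call is given.

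Each library was next centred on its median tested promoter, which sets aside the shift shared by most promoters (0.85 on the log2 scale). Of the 7 tested members, 2 then had a positive difference, Slc7a9 and Slc3a1 with 0.13 each (SE 0.29 and 0.30), beside 48.8% of tested promoters. The remaining 5 were Slc1a1 (-0.062), Slc5a1 (-0.11), Slc2a2 (-0.26), Slc15a1 (-0.32) and Slc6a20a (-0.72, SE 0.30). Again 0 of 7 passed limma's threshold, with adjusted p of 1.000 for each, while 5 promoters (0.0504%) passed it as higher and 7 (0.0705%) as lower. The smallest unadjusted limma p was 0.0157, at Slc6a20a, the gene whose window is shared with Ccr9. It was the 1 member of the 7 under 0.05, while 294 of the 9930 tested promoters were under 0.05 after centring. After centring, both ApcMin/+ libraries lay below both wild-type libraries at Slc6a20a and Slc2a2, as at 14.3% of tested promoters, and at no tested member above them, against 13.1%. At the strongest annotated starts of Slc6a19 and Slc7a7 the differences were 0.52 (SE 1.24) and 1.03 (SE 1.29), -0.37 and 0.14 after centring, and -0.39 and 0.23 without ApcMin/+ replicate 1. At the strongest starts 0 of 9 tested members and 0% of the 10796 tested genes passed limma's threshold in either direction, and 0 of 9 and 153 genes had an unadjusted p under 0.05. The plot of differences shows the uncentred and centred values of each gene.

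**Figure D4:**
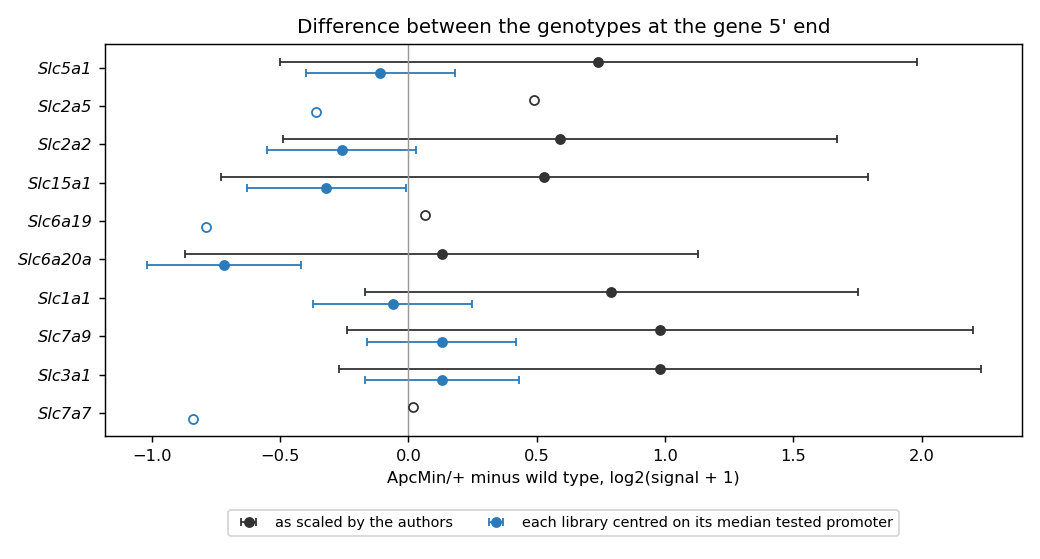
Difference in log2(signal + 1) between ApcMin/+ and wild-type libraries (horizontal axis) at the 5′ end of the 10 genes, as scaled by the authors (black) and after centring of the libraries on their median tested promoters (blue). Bars are the standard error from limma (2 libraries per genotype), and open circles are the 3 genes below the filter, without a test. All 10 black points lie above 0, and 8 of the 10 blue points below it.

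Genes whose products work with these carriers were read in the same way. Slc3a2, the heavy subunit that brings the Slc7a7 product to the basolateral membrane, had signals of 4.42 and 3.96 in wild-type and 24.0 and 5.32 in ApcMin/+ libraries, a difference of 1.28 (SE 1.16, limma adjusted p = 0.683) that was 0.29 without ApcMin/+ replicate 1. Both ApcMin/+ libraries were above both wild-type libraries, as at 38.5% of tested promoters. Atp1b1, a subunit of the sodium pump, had the highest signal of the 8 partners, with 17.8, 6.29, 44.2 and 9.35. The scaffold protein gene Slc9a3r1 had 7.61, 6.13, 23.3 and 6.76, and the scaffold gene Pdzk1 had 5.16, 2.72, 8.59 and 2.17. In contrast, Cltrn, whose product brings the neutral amino acid carrier to the surface in kidney, had a mean signal of 0.130 at its 5′ end, and Rsc1a1, a regulator of the sodium-coupled glucose carrier, had 0.545. Thus 5 of the 8 partners were tested, and 0 passed limma's threshold.

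Other carriers of glucose, fructose, amino acids and peptides were read for comparison. Of 17 other glucose and fructose carriers 7 were tested, with a median of the mean signal of 1.74, and of 34 other amino acid and peptide carriers 13 were tested, with a median of 0.982. The highest among the sugar carriers were Slc5a11, a sodium-coupled inositol carrier (10.5, 4.78, 17.3 and 4.93), and Slc2a7, a hexose carrier next to Slc2a5 (5.23, 2.92, 5.95 and 3.63). Among the amino acid carriers the highest were Slc43a2 (16.4, 7.22, 38.3 and 7.38) and Slc7a8 (5.66, 4.09, 22.8 and 3.29), both carriers of large neutral amino acids. In limma 0 of these carriers passed the threshold in either direction. The median difference was 0.20 for the sugar and 0.16 for the amino acid carriers, beside 0.35 over all protein-coding genes. Without ApcMin/+ replicate 1 these medians were -0.014, -0.063 and 0.082.

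The transcription factors of enterocyte genes were all tested (11 of 11), with a median of the mean signal of 8.46, among them Gata6 (10.4, 4.90, 32.3 and 6.88). Their median difference was 0.96, or 0.016 without ApcMin/+ replicate 1, and 0 passed the threshold. The 7 genes of fructose metabolism were tested as well, led by Tkfc, the triose kinase (6.63, 4.13, 30.9 and 7.62), and Khk, which phosphorylates fructose (10.1, 4.19, 21.0 and 6.76), with a median difference of 0.83, or 0.029 without ApcMin/+ replicate 1, and 0 past the threshold. Thus the downstream enzymes of fructose carried the mark at their 5′ ends, and the fructose carrier Slc2a5 carried it inside the gene. The genes outside the list with values closest to the median of the 10 members over the 4 libraries were Nf2, Gas2l1 and Yeats4, at a mean absolute distance of 0.054, 0.056 and 0.057 in log2(signal + 1).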

How the data were processed

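Villus H3K4me3 CUT&RUN libraries, 2 wild-type and 2 ApcMin/+, were used, grouped by the genotype in the labels, out of 34 samples in the series. The other libraries were not analysed here. Per the labels and the study's methods, the authors aligned read pairs to mm10 with Bowtie2, removed duplicates with Picard and reads with a MAPQ under 10, and kept fragments of 150 to 500 bp. The deposited values are signal: the authors' HOMER coverage, brought to 10000000 tags in each library and corrected for fragment length, with no control subtracted and no pooling. Scaling to total tags lowers background where more tags lie at promoters, and hides any genome-wide change.

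The signal was averaged within 1000 bp of the 5′ end of 21938 protein-coding genes of GENCODE M21. The 4 tracks hold 1430000, 4790000, 3700000 and 5470000 tags (wild-type replicates 1 and 2, then ApcMin/+ replicates 1 and 2), so 1 fragment adds 0.349, 0.104, 0.135 and 0.0914 to a window. Fragments were the summed signal over the signal per tag, a tag being taken as 1 fragment, and intervals cover counting error only. Where the mean signal reached 2, promoters were tested on log2(signal + 1) by limma 3.58.1 with a trend (R 4.3.3), p-values being adjusted by the Benjamini-Hochberg method over all of them, with a threshold of 0.05. This test was checked on simulated data with the real depths, counting error and planted changes, but with no library that stood apart. The check therefore does not cover the spread between the real libraries. For a single value, the exact permutation test of 2 libraries against 2 cannot give a p below 0.333, so none is given. Differences are on the log2(signal + 1) scale, which understates changes of low genes. Enriched regions were called on the mean of the 4 tracks, at 5 times the genome-wide mean over at least 300 bp. Background lay outside them and over 5000 bp from any gene's 5′ end. The remaining steps ran in Python 3.11.15 with scipy 1.17.1, pandas 2.3.3 and numpy 2.4.6. Promoter sequences are from RefSeq (GRCm38).

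The members and all lists were chosen with earlier results of these data known. Named genes were the members, all partners, the 2 with the highest mean signal and any past the threshold in each other list, the 3 nearest in pattern, and genes sharing a window. Some named genes and a sequence are not reported here. Tmem27 was read as Cltrn, its current symbol.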

Additional observations from a re-analysis of the deposited data

How the results depend on the processing

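No member passed the threshold in either direction under any alternative except without ApcMin/+ replicate 2, so leaving out 1 library gave 0 to 3 members higher and 0 lower. Over all tested promoters, leaving out 1 library gave 0 to 6539 higher and 0 to 5 lower, and with centring 0 to 14 higher and 0 to 20 lower. The 3 members and the 6539 promoters came from the same fit, without ApcMin/+ replicate 2, in which 9987 promoters were tested. The median difference there was 1.58 over all tested promoters, so higher values were not particular to the members. Every fit without 1 library leaves a single library in a genotype, so these counts are not taken as calls. Centring alone gave 5 higher and 7 lower, and centring at the strongest annotated start, chosen after seeing the data, 5 higher and 8 lower. With the replicate number as a block 0 promoters were higher and 1 lower, and with centring 5 and 10. Same-numbered libraries share only a number (correlation of their deviations 0.196 over 2 pairs), and the block changed no call among the members. Scaling to background, the filter, the pseudocount and the window left both counts at 0.

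The number of members with a higher mean in ApcMin/+ mice, 10, became 2 with centring, also with the replicate block, and 3 at the strongest start with centring. It was 5 to 9 when 1 library was left out, and 2 to 3 with centring. The median difference over the members, 0.56, was -0.29 with centring and -0.0057 to 1.50 when 1 library was left out, or -0.43 to -0.083 with centring. Of 200 values of single members under the alternatives, 65 had the opposite sign, 43 of them at the tested members. With centring, Slc5a1 (-0.11), Slc2a2 (-0.26), Slc15a1 (-0.32), Slc6a20a (-0.72) and Slc1a1 (-0.062) turned, with the same values under the replicate block, and at the strongest start they were -0.14, -0.26, -0.36, -0.74 and -0.0058. Slc6a20a was -0.042 in the window of 500 bp. Without 1 library, Slc5a1 fell to -0.056, Slc2a2 to -0.34, Slc15a1 to -0.40 and -0.0077, Slc6a20a to -0.55 and -0.083, and Slc1a1 to -0.012, with highest values of 0.81 for Slc6a20a and 1.60 for Slc1a1. With centring as well, the values below 0 ran from -0.28 to -0.034 for Slc5a1, -0.45 to -0.053 (with -0.33 and -0.21) for Slc2a2, -0.66 to -0.0047 (with -0.51) for Slc15a1, -0.77 to -0.66 (with -0.73 for either wild-type library) for Slc6a20a, -0.53 to -0.12 for Slc1a1 and -0.17 to -0.055 for Slc7a9, and Slc3a1 was -0.11. The cause was not tested. The values of the other lists, of Slc3a2 and of the inner starts without ApcMin/+ replicate 1 were added after seeing the data. Of 60 stretch lengths, 11 moved by over 1.5 times.

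Depth limits the low genes most, since wild-type replicate 1 held a median of 13.0 fragments at a tested promoter, and a promoter with a few fragments cannot be ranked. With 2 libraries per genotype, of which 1 stood apart, the standard errors as scaled were as large as the differences. After centring they were smaller, and neither Slc6a20a (-0.72, SE 0.30) nor any other tested member passed the adjusted threshold. No input, total H3 or RNA was used here, and fewer marked cells and less mark per cell cannot be told apart.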
